A study of Mus musculus and Mus musculus
Rattus norvegicus with 30 samples.

Results

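Formative and primed epiblast genes mark the steps by which pluripotent cells leave the naive state. The genes described here were taken by symbol, without a cut on measured values: Otx2, Pou3f1, Fgf5, Lin28a, Lin28b, Zic2, Sox3, Oct6, Dusp6 and Etv5. They were chosen with earlier results of these data known. Of these 10 names, 9 had a row among the 19919 genes counted in both mESC tables. Oct6 had none, being an older name of Pou3f1, so that 1 row stands for both names. All 9 were also listed among the 34923 genes of the mouse table of RMES cells, and 7 among the 25245 genes of the rat table, in which Pou3f1 and Sox3 were not listed.

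Mouse embryonic stem cells (mESCs) and RMES cells, allodiploid stem cells made by fusing haploid mouse and haploid rat ESCs, were kept in N2B27 medium with LIF, the GSK3 inhibitor Chir99021 and the MEK inhibitor PD0325901. Lentiviral Tet-On transgenes carried Flag-tagged mouse Cdx2 (mCdx2-OE), rat Cdx2 (rCdx2-OE) or 1 of 7 rCdx2 mutants that held 3 mouse-specific amino acid changes of the DNA-binding domain singly (R1, R2, R3), in pairs (R12, R13, R23) or together (R123). Doxycycline was given at 200 ng/mL for 48 h to cells with mCdx2 or rCdx2, and the time for the mutants is not stated. RNA-seq covered 2 libraries of each of 10 mESC conditions, the WT control included, and in RMES cells 2 libraries labelled WT, 1 of mCdx2-OE and 1 of rCdx2-OE, counted apart for each parental genome. ATAC-seq compared 1 WT with 1 mCdx2-OE mESC library, and anti-Flag ChIP-seq was run once for each of mCdx2-OE and rCdx2-OE in both cell types, so that neither has a replicate check. The labels give WT cells no further genotype, and do not tell whether they were uninduced transgenic or parental cells. They name separate samples but not separate cultures, so p-values measure the spread between these samples, which may be technical.

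In the epiblast, naive cells pass through a formative state to a primed one. FGF acts through MEK and ERK to drive this transition, Otx2 redirects enhancer use on the way, Fgf5 and Pou3f1 are classical markers of its later part, and the RNA-binding proteins Lin28a and Lin28b restrain maturation of let-7 microRNAs. Dusp6 and Etv5 are transcribed in response to ERK activity and are commonly read as its reporters, while Sox3, Zic2 and Pou3f1 are shared with the neural lineage. Cdx2, the factor expressed here from the transgene, specifies the trophectoderm in the embryo.

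Depth ranged from 12698443 to 24315929 counts in the 18 induced mESC libraries and was 74960057 and 94686029 in the 2 WT libraries. RMES libraries held 36166038 to 41418817 mouse counts and 29453412 to 35249756 rat counts. The overexpressed gene was checked first. Levels are given as CPM, the counts scaled to equal library size with TMM factors. Cdx2 stood at 1.36 and 1.21 CPM in WT, at 97.9 and 127 in mCdx2-OE, at 70.4 and 67.0 in rCdx2-OE, and at 37.2 to 147 (median 63.7) in the 14 mutant libraries, with rat Cdx2 reads counted on the mouse gene. In RMES cells the libraries labelled WT were themselves not low in Cdx2: they held 129 and 127 CPM on the mouse and 453 and 440 on the rat allele. The mCdx2-OE library held 968 and 47.2, and the rCdx2-OE library 4.45 and 880. Directions in RMES cells are therefore against libraries labelled WT that held Cdx2 reads on both alleles.

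In mESCs 75.5% of 15911 protein-coding genes had a Cdx2 ChIP-seq peak within 30 kb of the start, and all 9 genes with a row had such peaks. The sequences below are 200-base windows at the centre of 5 of these peaks (mm10/GRCm38, plus strand), shown because they lie beside Zic2, whose peak held the most reads, beside Lin28a and Lin28b, and at the start of Dusp6. Capitals mark TTTATNG, letters of the Cdx2 recognition motif, or CNATAAA, the same letters on the other strand. The Zic2 window is chr14:122467692-122467891, between genes and 7.6 kb upstream of the Zic2 start, with an exon of Zic5 further upstream. The Lin28a windows, in introns of the gene, are chr4:134016376-134016575 and chr4:134017112-134017311. The Lin28b window is chr10:45467716-45467915, in an intron, and the Dusp6 window is chr10:99262881-99263080, just upstream of the gene.
Zic2 upstream peak: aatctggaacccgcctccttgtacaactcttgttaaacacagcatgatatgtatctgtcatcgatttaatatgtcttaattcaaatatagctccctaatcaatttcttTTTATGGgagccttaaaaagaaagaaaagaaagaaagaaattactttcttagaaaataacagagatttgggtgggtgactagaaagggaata
Lin28a intron peak, 2.4 kb from the start: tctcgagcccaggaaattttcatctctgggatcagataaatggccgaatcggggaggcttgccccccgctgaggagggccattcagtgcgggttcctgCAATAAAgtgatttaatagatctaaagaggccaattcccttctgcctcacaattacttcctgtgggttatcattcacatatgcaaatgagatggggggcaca
Lin28a intron peak, 1.6 kb from the start: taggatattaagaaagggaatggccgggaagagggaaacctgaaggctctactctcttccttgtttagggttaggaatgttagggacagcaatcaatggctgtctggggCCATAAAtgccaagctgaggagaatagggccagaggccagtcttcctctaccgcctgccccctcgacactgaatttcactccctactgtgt
Lin28b intron peak: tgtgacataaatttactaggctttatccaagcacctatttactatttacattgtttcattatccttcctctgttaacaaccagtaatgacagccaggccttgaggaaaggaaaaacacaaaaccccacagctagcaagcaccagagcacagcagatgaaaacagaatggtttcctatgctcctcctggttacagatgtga
Dusp6 promoter peak: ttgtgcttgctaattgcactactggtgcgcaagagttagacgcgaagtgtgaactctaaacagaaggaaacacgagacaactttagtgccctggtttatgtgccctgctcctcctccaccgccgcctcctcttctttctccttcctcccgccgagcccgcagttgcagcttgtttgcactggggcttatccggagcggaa
The letters were present in the windows of Zic2 and Lin28a and not in those of Lin28b and Dusp6, although the whole Lin28b peak held them 2 times and the whole Zic2 peak 5 times. Over both strands, 9 of the 20 mESC peak windows near the genes held the letters, against 45.3% of all 88411 windows of that length. None of the 10 RefSeq promoters (GRCm38.p6, 300 bases) found for 6 of the genes held them, against 10.9% of 32851 promoters. A match describes these letters and is not a bound site.

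In WT mESCs the genes spanned a wide range. Per kilobase of exon, mean levels over 2 libraries were 135 CPM for Etv5, 79.3 for Lin28a, 25.6 for Zic2, 9.01 for Dusp6, 2.06 for Lin28b, 1.25 for both Otx2 and Sox3, 0.807 for Pou3f1 and 0.0779 for Fgf5. Otx2 and Sox3 were neighbours in that order that did not differ beyond their spread. Fgf5, the growth factor that marks primed cells, had 13 and 18 counts in WT and 0 to 0.247 CPM in the induced libraries, and did not pass the filter on low counts. The other 8 genes passed it and were tested.

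Against WT, mCdx2-OE lowered 4 of the 8 genes by more than 2-fold at an adjusted p under 0.05 (edgeR quasi-likelihood test, Benjamini-Hochberg), namely Lin28a, Sox3, Dusp6 and Etv5, and raised none. Over all 16000 genes tested, 15.0% were called lower and 18.4% higher. With rCdx2-OE, again 4 were lower and none higher, beside 15.4% and 19.0% of all genes. The mean of the 7 mutants had 3 lower (Lin28a, Sox3, Dusp6) and 1 higher (Otx2), beside 13.9% and 12.3%. These 3 comparisons share the same 2 WT libraries. In a bulk sample, fewer cells expressing a gene and less RNA per cell cannot be told apart.

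**Figure D1:**
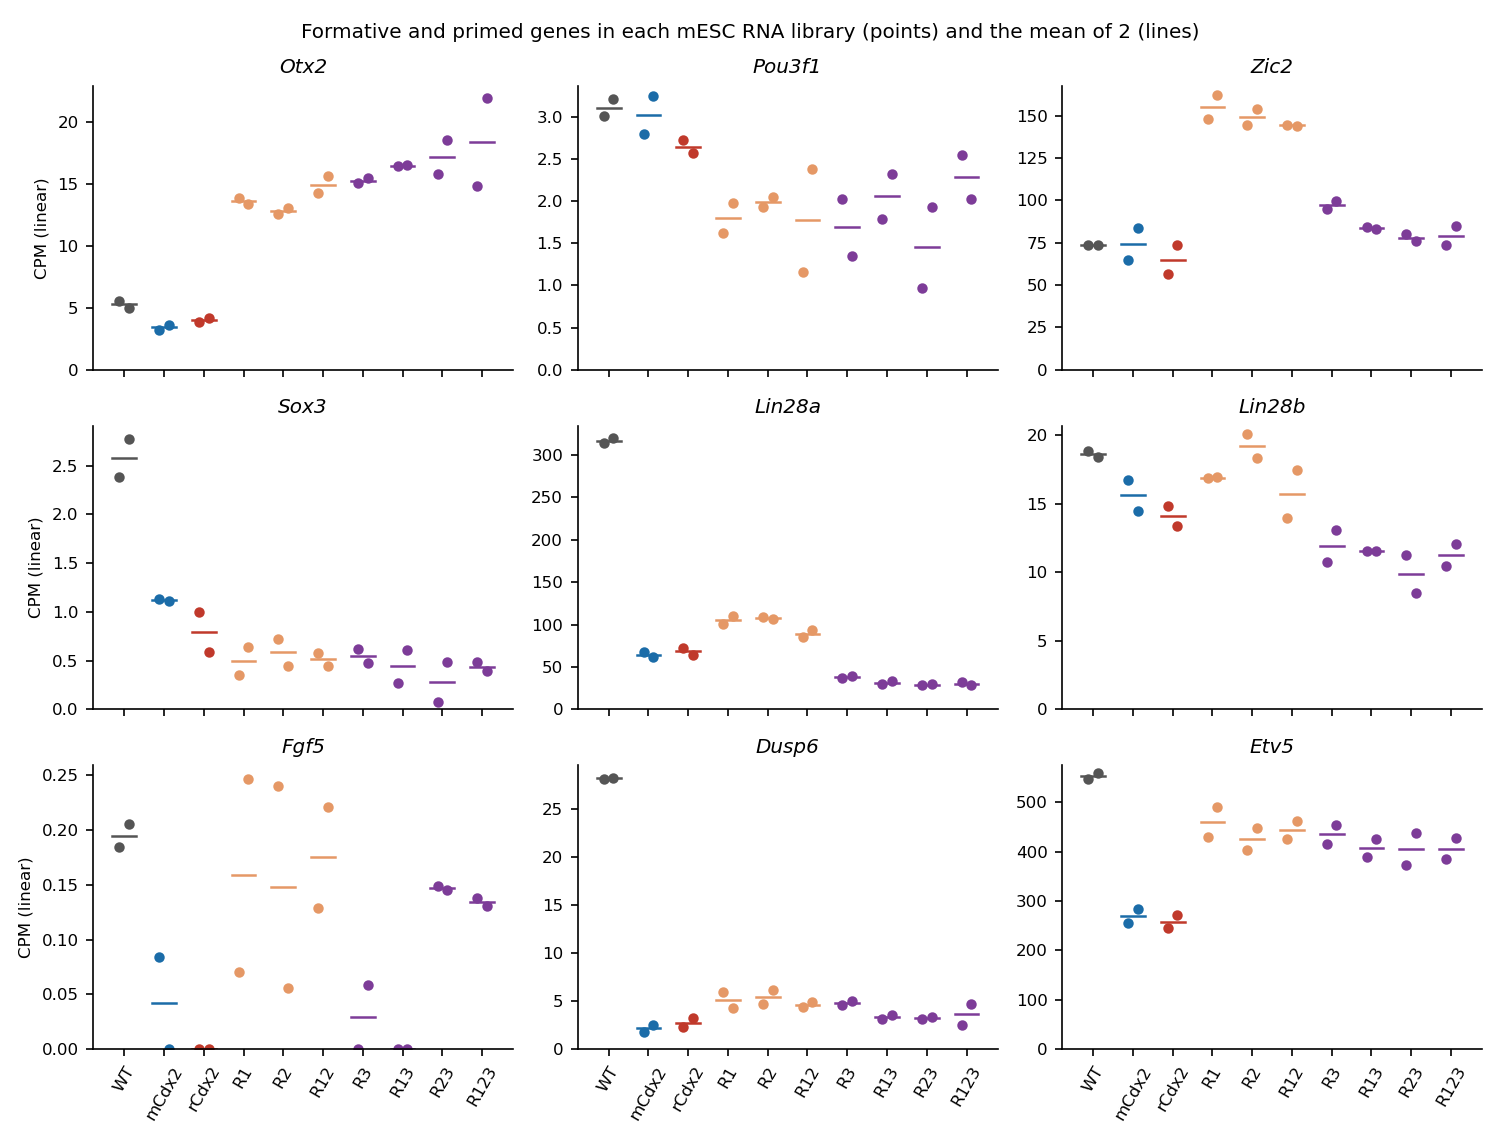
Level of each gene in mESCs as CPM (vertical axis, linear, from 0), 1 point per library and a line at the mean of 2, with the conditions along the horizontal axis. Lin28a and Dusp6 are below WT in every induced library, and Otx2 is above WT in all 14 mutant libraries but below it in the 4 libraries of mCdx2-OE and rCdx2-OE.

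Otx2, the homeodomain factor of the formative transition, was the gene for which unmutated and mutant Cdx2 went opposite ways. It stood at 5.53 and 5.01 CPM in WT, 3.22 and 3.64 in mCdx2-OE, and 3.88 and 4.18 in rCdx2-OE, whereas mutant libraries ranged from 12.6 to 22 (median 15.3, n = 14). No mutant library overlapped WT, and no library of mCdx2-OE or rCdx2-OE reached it. The log2 fold change against WT was −0.63 ± 0.17 (SE, adjusted p = 0.00324) in mCdx2-OE and −0.39 ± 0.16 (adjusted p = 0.0412) in rCdx2-OE, both short of 2-fold. In the mutants it was 1.55 ± 0.12 (adjusted p = 4.98e-09), a 2.93-fold higher level. R123, in which all 3 changes stand together as in mCdx2, had 14.9 and 22 CPM against the 3.22 and 3.64 of mCdx2-OE, values given side by side with no test between them. The direct difference between mutants and rCdx2-OE was 1.95 ± 0.14 (adjusted p = 6.72e-09). The gene whose mean level over the 10 conditions was most like that of Otx2 was Trappc12 (Pearson's r = 0.995, over condition means that share the libraries), followed by Ddah1 (0.993).

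Pou3f1, the POU factor once named Oct6, moved less. It had 3.01 and 3.21 CPM in WT, 2.80 and 3.25 in mCdx2-OE, 2.73 and 2.57 in rCdx2-OE and 0.966 to 2.54 (median 1.95) in the mutants. Mutant libraries all lay below WT. The log2 fold change was −0.73 ± 0.18 in the mutants (adjusted p = 0.00161), under 2-fold, and −0.05 ± 0.26 (adjusted p = 0.875) in mCdx2-OE. Mkrn3 (r = 0.926) and Ndufb11 (0.925) had the most similar profiles over conditions.

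Zic2, a zinc finger factor of the primed epiblast and the neural plate, stood at 73.8 and 73.7 CPM in WT, 65.0 and 83.8 in mCdx2-OE, and 56.3 and 73.8 in rCdx2-OE. Neither was called (log2 fold change 0.01 ± 0.12, adjusted p = 0.946, and −0.19 ± 0.12, adjusted p = 0.165). In mutants without change 3 it ranged from 144 to 162 (n = 6), well above WT, and in mutants with change 3 from 73.4 to 99.9 (n = 8). The mutants as a whole were 0.55 ± 0.09 above WT (adjusted p = 5.07e-05), which is less than 2-fold. Pkd1l2 (r = 0.986) and Kdm3a (0.982) were most like it over the 10 conditions.

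Sox3, an X-linked SoxB1 factor of epiblast and neural progenitors, fell under every construct. It had 2.38 and 2.78 CPM in WT, 1.13 and 1.11 in mCdx2-OE, 1.0 and 0.586 in rCdx2-OE, and 0.0743 to 0.722 (median 0.476) in the mutants. The mutant range overlapped rCdx2-OE but neither WT nor mCdx2-OE. Log2 fold changes were −1.20 ± 0.34 (adjusted p = 0.00474), −1.62 ± 0.35 (adjusted p = 0.000683) and −2.44 ± 0.23 (adjusted p = 5.91e-08). A mutant library held as few as 1 Sox3 read, and the standard error of the last value was the largest of the 8 genes in the mutants. Genes of the X chromosome had a median log2 fold change of 0.59 in mCdx2-OE, 0.53 in rCdx2-OE and 0.13 in the mutants. Xist, the RNA of X inactivation, rose from 4.24 and 4.71 CPM in WT to 69.6 to 102 in mCdx2-OE and rCdx2-OE. In the mutants Xist stayed at 1.65 to 8.49 CPM. In mCdx2-OE and rCdx2-OE, Sox3 thus fell while its chromosome rose. In the mutants, where Sox3 fell most, the X median of 0.13 against WT was below the 0.17 of chromosome 16. Against rCdx2-OE the X median in the mutants was −0.43. The part of the X-wide shift in the Sox3 values was not tested. Sem1 (r = 0.987) and Hras (0.984) were the genes most like it.

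Of the 2 Lin28 paralogues, Lin28a changed far more than Lin28b. Lin28a stood at 314 and 320 CPM in WT, 67.2 and 61.3 in mCdx2-OE, 72.4 and 64.5 in rCdx2-OE and 28.7 to 110 (median 38.4) in the mutants. All 18 induced libraries were far below WT. R123 had 31.8 and 29 CPM, below the 67.2 and 61.3 of mCdx2-OE. Lin28a fell by 2.3 ± 0.09 on the log2 scale in mCdx2-OE (4.93-fold, adjusted p = 2.08e-12), by 2.21 ± 0.09 in rCdx2-OE (4.62-fold, adjusted p = 2.74e-12) and by 2.6 ± 0.05 in the mutants (6.06-fold, adjusted p = 9.92e-16). Lin28b had 18.8 and 18.4 CPM in WT, 16.8 and 14.5 in mCdx2-OE, 14.9 and 13.4 in rCdx2-OE and 8.46 to 20.1 (median 12.6) in the mutants, so mutants spread to both sides of WT. Its log2 fold changes were −0.25 ± 0.14 (adjusted p = 0.118), −0.39 ± 0.14 (adjusted p = 0.0188) and −0.47 ± 0.10 (adjusted p = 0.000335), none over 2-fold. Khdrbs1 and Ints5 were most like Lin28a (r = 0.994 for each), and Sfswap (0.979) and H3f3b (0.974) most like Lin28b.

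Dusp6, the phosphatase that switches ERK off, and Etv5, a PEA3 family factor downstream of FGF, are the ERK-responsive members. Dusp6 stood at 28.2 CPM in each WT library, 1.76 and 2.54 in mCdx2-OE, 2.27 and 3.23 in rCdx2-OE and 2.54 to 6.10 (median 4.46) in the mutants. It fell by 3.75 ± 0.23 on the log2 scale in mCdx2-OE, a 13.5-fold drop (adjusted p = 6.53e-10), by 3.41 ± 0.22 in rCdx2-OE (adjusted p = 1.29e-09) and by 2.74 ± 0.12 in the mutants (adjusted p = 7.97e-12). These libraries did not overlap WT. Etv5, the most abundant of the genes, had 548 and 559 CPM in WT, 256 and 284 in mCdx2-OE, 244 and 271 in rCdx2-OE and 372 to 490 (median 427) in the mutants, 3 bands with no overlap. Its log2 fold changes were −1.04 ± 0.10 (adjusted p = 1.67e-07), −1.10 ± 0.10 (adjusted p = 7.56e-08) and −0.38 ± 0.07 (adjusted p = 0.000201), and the first was −0.97 without mCdx2-OE replicate 1, which takes it under 2-fold. Chromosome 16, where Etv5 lies, had a median of 0.12 in mCdx2-OE and 0.17 in the mutants. Akr1b3 (r = 0.996) and Nhp2 (0.994) were most like Dusp6, and Hmga1b (0.995) and Pcna (0.994) most like Etv5.

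**Figure D2:**
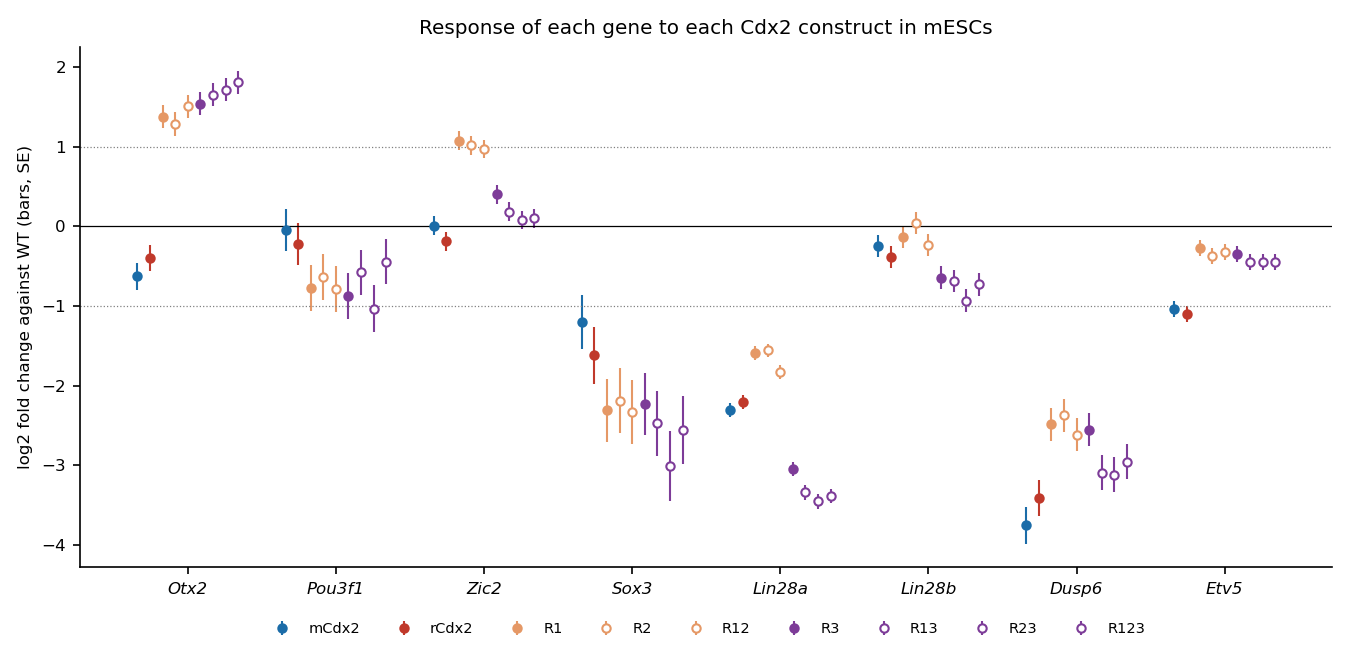
Log2 fold change against WT with its standard error for the 8 tested genes (vertical axis, log2 units) in each of the 9 Cdx2 constructs, 2 libraries per construct. Otx2 is above 0 in all 7 mutants and below 0 in mCdx2-OE and rCdx2-OE, and Lin28a is lowest in the 4 mutants that carry change 3.

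Whether the mouse and rat proteins differ was asked by setting mCdx2-OE against rCdx2-OE. None of the 8 genes was called (edgeR, adjusted p = 1 for each), and none had an unadjusted p under 0.05. DESeq2 also called 0 of the 8. Over all genes 0.0187% were called, which is 3 genes with edgeR and 22 with DESeq2, and 857 had an unadjusted p under 0.05. The largest difference among the 8 was that of Sox3, at 0.42 ± 0.42, and the smallest was Etv5 at 0.07 ± 0.10. With 2 libraries a side, differences of such a size could not be resolved for the low genes.

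Mutants and rCdx2-OE differed more. Each construct was a stable line of its own, so that line and construct cannot be told apart. Of the 8 genes, 5 were called at any fold, beside 55.6% of all genes, so the share is near that of the whole table. Otx2 (1.95), Zic2 (0.74 ± 0.10, adjusted p = 7.73e-06), Etv5 (0.72 ± 0.08, adjusted p = 1.43e-06) and Dusp6 (0.67 ± 0.20, adjusted p = 0.0112) were higher in the mutants. Lin28a was lower as a mean over the mutants (−0.39 ± 0.06, adjusted p = 7.38e-05), which lay on both sides of the 68.5 CPM of rCdx2-OE. The means of R1 (105), R2 (108) and R12 (89.3) were above that level. Those of R3 (38.4), R13 (31.3), R23 (29) and R123 (30.4) were below. Without rCdx2-OE replicate 1, Dusp6 was at 0.39 and was not called. Sox3 (−0.82 ± 0.35, adjusted p = 0.0561) and Pou3f1 (−0.51 ± 0.23, adjusted p = 0.0668) missed the threshold. Genes of the X chromosome had a median of −0.43 in this comparison (quartiles −1.09 and 0.05). The part of that shift in the Sox3 value was not tested. Without rCdx2-OE replicate 1, Sox3 was at −0.31 (adjusted p = 0.724). It passed the threshold, at −0.90 to −1.11, without replicate 2 of rCdx2-OE, R1, R13 or R23, and Pou3f1 passed it, at −0.60, without replicate 2 of R12 or R23.

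The effect of each change was estimated in an additive model fitted to 16 libraries, those of rCdx2-OE and of the mutants. The model has no term for an offset shared by all mutants, and rCdx2-OE is its only construct without any change. Such an offset is spread over the values of the 3 changes. Otx2 showed one, at 3.88 and 4.18 CPM in rCdx2-OE against 12.6 to 15.7 in mutants without change 3. The values of this model therefore mix each change with any such offset. The fit over the mutants alone, given after them, holds no rCdx2-OE library. For change 3, 4 of the 8 genes were called, beside 36.6% of all genes. With change 3, Lin28a was lower by 1.52 on the log2 scale (−1.52 ± 0.12, adjusted p = 1.59e-07), Lin28b was at −0.57 ± 0.10 (adjusted p = 0.000423), Zic2 at −0.57 ± 0.17 (adjusted p = 0.017) and Otx2 at 0.66 ± 0.20 (adjusted p = 0.0149). For Lin28a, Lin28b and Zic2 the ranges with and without the change did not overlap among the mutants, and for Otx2, at 12.6 to 15.7 CPM without and 14.9 to 22 with it, they did. Lin28a lay at 84.9 to 110 CPM in the 6 mutant libraries without change 3 and at 28.7 to 39.6 in the 8 with it, and rCdx2-OE, which lacks the change, lay between them. Against WT, Lin28a was 2.94-fold to 3.55-fold lower in the 3 mutants without change 3 and 8.25-fold to 10.9-fold lower in the 4 with it. Lin28b likewise lay at 14 to 20.1 without and at 8.46 to 13.1 with the change. Among the mutants Zic2 lay at 144 to 162 CPM without and 73.4 to 99.9 with the change. In rCdx2-OE, which lacks the change, it had only 56.3 and 73.8.

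Over the mutants alone, the values for change 3 were −1.71 ± 0.06 for Lin28a (adjusted p = 2.8e-13), −0.87 ± 0.05 for Zic2, −0.67 ± 0.09 for Lin28b and 0.33 ± 0.08 for Otx2, and Dusp6 was then also called, at −0.50 ± 0.14 (adjusted p = 0.00661), beside 51.8% of all genes. The Cdx2 transcript itself moved with change 3. It ranged from 60.6 to 147 CPM (median 107) in mutants without it and from 37.2 to 94.4 (median 53.1) in those with it. Replicate numbers also mark the counting run. Within replicate 1, Cdx2 lay at 145 to 147 CPM without and 62.0 to 94.4 with change 3, and within replicate 2 at 60.6 to 68.8 without and 37.2 to 44.3 with it. The ranges of Lin28a, Lin28b and Zic2 also stayed apart within each number. The part of the Cdx2 level in the values above was not tested. For changes 1 and 2, 0 of the 8 genes were called in the model of 16 libraries, beside 0% of all genes (0 of 15114) with edgeR for each. That model leaves the offset between mutants and rCdx2-OE without a term, so these 0 calls cannot tell whether changes 1 and 2 had an effect. DESeq2 called 24 genes for change 1 and 2 for change 2, and 1995 and 1569 genes had an unadjusted p under 0.05. In the model of 16 libraries, Otx2 was the only one of the 8 with an unadjusted p under 0.05, at 0.47 ± 0.20 (adjusted p = 0.347) for change 1 and 0.45 ± 0.19 (adjusted p = 0.471) for change 2 with edgeR. Over the mutants alone it was instead Lin28a, at −0.18 ± 0.06 (adjusted p = 0.503) for change 1 and −0.22 ± 0.06 (adjusted p = 0.298) for change 2, and Zic2, at −0.17 ± 0.05 (adjusted p = 0.298) for change 2, and none of them was called, beside 0.0272% and 0% of all genes for changes 1 and 2. With a replicate block added to that fit, both Lin28a (adjusted p = 0.0188) and Zic2 (adjusted p = 0.0191) were called for change 2, beside 1.55% of all genes (0.449% for change 1, with none of the 8). For change 3 that fit called 6 of the 8, Etv5 (−0.115 ± 0.03, adjusted p = 0.0007) added to the 5 above, beside 58.5% of all genes. It was chosen after seeing the data.

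Other genes of the same state and pathway gave the following counts. Over all genes, 18.4% were called higher and 15.0% lower in mCdx2-OE, and 12.3% and 13.9% in the mutants. Of 18 further formative and primed genes, 1 was higher and 11 were lower in mCdx2-OE, with a median log2 fold change of −1.20 against −0.03 over all genes. In the mutants 1 was higher and 11 were lower, with a median of −1.59. The 3 largest of these changes in mCdx2-OE were falls of Utf1 (−3.20 ± 0.14, adjusted p = 1.11e-11), a chromatin factor of pluripotent cells, Sox11 (−2.51 ± 0.11, adjusted p = 1.82e-11) and Tcf15 (−2.47 ± 0.23, adjusted p = 9.47e-08), a bHLH factor of the primed transition. Of 15 tested targets and feedback inhibitors of FGF and ERK signalling, 6 were lower and none higher in mCdx2-OE, with a median of −0.91. Spry4, a feedback inhibitor, fell by 5.46 ± 0.30 (adjusted p = 1.64e-10), Etv4 by 2.58 ± 0.11 (adjusted p = 5.65e-12) and Etv1 by 2.10 ± 0.17 (adjusted p = 1.2e-08). Etv4 and Etv1 are the PEA3 relatives of Etv5.

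Genes of the Lin28 and let-7 axis showed no one direction. Of 10 tested, 1 was higher and 3 were lower in mCdx2-OE and none was called in the mutants. Hmga1 (−2.01 ± 0.18, adjusted p = 4.72e-08) and Mycn (−1.27 ± 0.10, adjusted p = 1.19e-08) fell and Arid3a (1.41 ± 0.09, adjusted p = 7.74e-10) rose. Of 13 naive pluripotency genes, only Nr0b1 (−1.89 ± 0.09, adjusted p = 2.94e-11) and Klf2 (−1.16 ± 0.09, adjusted p = 6.15e-09) were lower in mCdx2-OE and none was higher. In the mutants 1 of the 13 was higher and 1 lower than in WT by more than 2-fold, with a median of 0.61. Against rCdx2-OE, where 55.6% of all genes were called at any fold, 11 of the 13 were higher in the mutants and none was lower.

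Markers of cell types that the cultures could hold moved alongside. Of 8 tested trophoblast markers 7 were higher in mCdx2-OE and 5 in the mutants, the Cdx2 transgene counted among them in both. Without Cdx2, their summed level was 153 to 154 CPM in WT, 592 to 829 in mCdx2-OE and rCdx2-OE and 160 to 295 in the mutants. Of these, Krt18 rose by 4.68 ± 0.12 (adjusted p = 3.63e-14) and Esx1 by 4.51 ± 0.18 (adjusted p = 2.83e-12) on the log2 scale in mCdx2-OE. Of 7 embryonic stem cell markers 3 were lower in mCdx2-OE, namely Tdh (−1.99 ± 0.13), Pou5f1 (−1.47 ± 0.23) and Dppa5a (−1.28 ± 0.14). Nanog, also among the 7, was not called higher by more than 2-fold but was above WT in every induced library. It had 539 and 541 CPM in WT and 927 and 798 in mCdx2-OE. The 7 markers summed to 4929 to 5036 CPM in WT, 2347 to 2754 in mCdx2-OE and rCdx2-OE and 2928 to 3918 in the mutants. Of 6 tested fibroblast feeder markers 5 were lower in mCdx2-OE, among them Col1a2 (−4.47 ± 0.38) and Col1a1 (−2.83 ± 0.25), and Pdgfrb was higher (1.59 ± 0.19). They summed to 37.2 to 38.2 CPM in WT, 15.6 to 18.8 in mCdx2-OE and rCdx2-OE, and 2.57 to 7.20 in the mutants, where 3 to 5 of the 7 markers were at 0. Neural progenitor markers, a lineage that also uses Sox3, Pou3f1, Zic2 and Otx2, summed to 33.7 to 52.5 CPM over all libraries, and of 9 tested, 3 were higher and 1 was lower in mCdx2-OE. The part of these markers in the values of the epiblast genes was not tested.

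In RMES cells the same genes were read on 2 genomes in 1 cell. On the mouse allele 7 of the 9 listed genes passed the filter. Otx2 was listed with 0 counts in both libraries labelled WT, 1 in mCdx2-OE and 4 in rCdx2-OE, and Fgf5 with 4 and 8 counts and then 0 in both Cdx2-OE libraries. On the rat allele 5 of 7 passed, with Otx2 at 0 in all 4 libraries and Fgf5 at 0 in both libraries labelled WT, 6 counts in mCdx2-OE and 2 in rCdx2-OE. The mCdx2-OE and rCdx2-OE libraries were used as 2 Cdx2-OE samples, after the paper. On the mouse allele 4 of 7 genes were lower by more than 2-fold and none was higher, beside 16.1% and 28.3% of all genes. On the rat allele 4 of 5 were lower and none higher, beside 14.2% and 28.3%.

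Lin28a fell on both alleles. In the libraries labelled WT it had 537 and 519 CPM on the mouse allele, and 70.4 in mCdx2-OE and 55.8 in rCdx2-OE (log2 fold change −3.06 ± 0.09, adjusted p = 2.25e-11). On the rat allele it had 895 and 891 in the libraries labelled WT against 128 and 98.2 (−2.98 ± 0.10, adjusted p = 6.56e-13). Lin28b was called on neither, with 17.2 and 22.9 against 19.95 and 19.39 on the mouse allele (−0.03 ± 0.12, adjusted p = 0.822) and 9.29 and 9.48 against 10.2 and 10.8 on the rat allele (0.16 ± 0.12, adjusted p = 0.224).

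Dusp6 fell from 21.1 and 23.3 CPM to 3.24 and 1.87 on the mouse allele (−3.12 ± 0.18, adjusted p = 6.16e-09) and from 22.7 and 23.6 to 5.52 and 3.29 on the rat allele (−2.39 ± 0.17, adjusted p = 2.99e-09). Etv5 fell from 1116 and 1152 to 473 and 434 on the mouse allele (−1.32 ± 0.06, adjusted p = 4.31e-10) and from 584 and 576 to 92.4 and 77.4 on the rat allele (−2.77 ± 0.08, adjusted p = 1.59e-13). For both genes no Cdx2-OE library overlapped those labelled WT. Pou3f1, listed on the mouse allele alone, fell from 4.35 and 6.22 to 2.38 and 2.58 (−1.09 ± 0.21, adjusted p = 0.000311). Without WT replicate 2 its value was −0.82, which takes it under 2-fold. Sox3 had 1.20 and 1.39 CPM in the libraries labelled WT against 1.69 and 1.32 (0.21 ± 0.27, adjusted p = 0.483).

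Zic2 was the gene whose alleles differed in call. On the rat allele it fell from 170 and 168 CPM to 63.2 and 45.7 (−1.63 ± 0.10, adjusted p = 8.19e-10). On the mouse allele it had 16.3 and 15.1 in the libraries labelled WT, 19.5 in mCdx2-OE and 11.7 in rCdx2-OE, which lie on either side of them (−0.01 ± 0.18, adjusted p = 0.973). Without the rCdx2-OE library the mouse value was 0.33 (adjusted p = 0.00132). The mouse level was also low beside the 73.8 and 73.7 CPM of WT mESCs, a comparison across tables that were normalised apart.

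The difference between alleles was tested as an interaction term, each library being its own block, in which 62.1% of all genes were called, so a call here is common. As rat minus mouse response, Zic2 differed by −1.60 ± 0.09 (adjusted p = 1.3e-13), Etv5 by −1.43 ± 0.04 (adjusted p = 7.09e-20) and Dusp6 by 0.75 ± 0.17 (adjusted p = 0.000509). Lin28a, at 0.10 ± 0.04 (adjusted p = 0.0226), was called with a difference of 0.10 on the log2 scale, and lost the call without WT replicate 1 (0.07, adjusted p = 0.407) or WT replicate 2 (0.09, adjusted p = 0.252). Lin28b was not called (0.21 ± 0.15, adjusted p = 0.213).

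**Figure D3:**
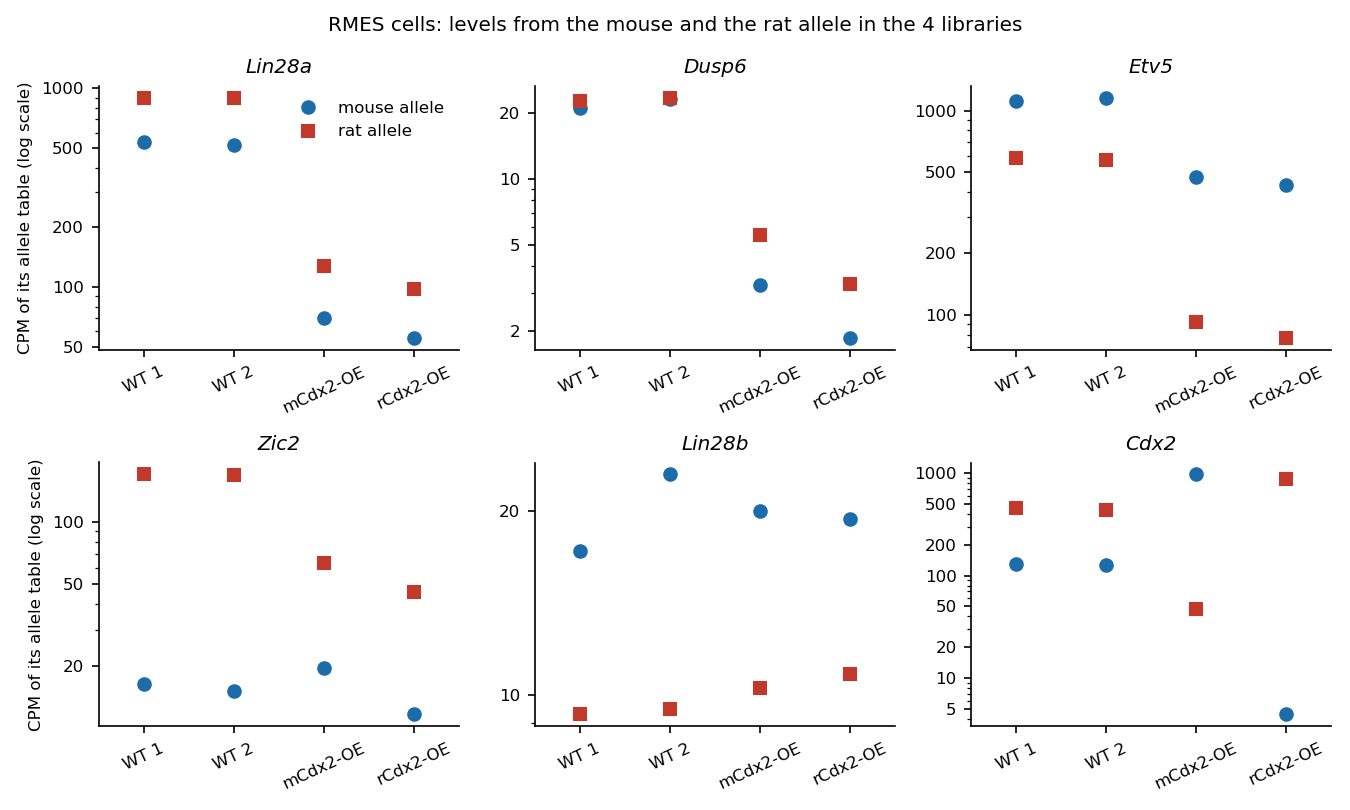
Level in RMES cells as CPM of each allele table (log axis) of the 5 genes tested on both alleles and of Cdx2, on the mouse and the rat allele, 1 point per library for the 2 libraries labelled WT, mCdx2-OE and rCdx2-OE. Zic2 falls on the rat allele from 170 and 168 to 63.2 and 45.7 while the mouse points stay between 11.7 and 19.5, and Lin28a falls on both.

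Of 18 further formative and primed genes in RMES cells, 3 were higher and 7 lower on the mouse allele (median −0.58), and of 15 tested on the rat allele 3 were higher and 7 lower (median −0.78). Over all genes, 28.3% were called higher and 16.1% lower on the mouse allele, and 28.3% and 14.2% on the rat allele. Targets of FGF and ERK signalling went both ways, with 6 higher and 7 lower of 16 on the mouse allele and 6 higher and 6 lower of 16 on the rat allele. Spry4 (−5.41 ± 0.13, adjusted p = 3.3e-12, and −4.67 ± 0.15, adjusted p = 4.49e-13), Etv4 (−4.25 ± 0.11, adjusted p = 8.68e-12, and −4.58 ± 0.08, adjusted p = 1.44e-15) and Etv1 (−3.02 ± 0.15, adjusted p = 1.71e-09, and −3.53 ± 0.13, adjusted p = 1.65e-12) fell on the mouse and the rat allele. Of the naive genes, 7 of 13 fell and 1 rose on the mouse allele, and 8 of 10 fell on the rat allele. Embryonic stem cell markers summed to 5770 and 5713 CPM in the libraries labelled WT and to 1939 and 1888 in Cdx2-OE on the mouse allele. Trophoblast markers other than Cdx2 summed to 176 and 167 against 990 and 1123. The part of these markers in the values of the epiblast genes was not tested here either.

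Chromatin around the genes was compared in mESCs between 1 WT and 1 mCdx2-OE ATAC-seq library, scaled to equal totals. Of 63 ATAC peaks within 30 kb of a gene start, 42 had at least 40 scaled reads over both libraries. Of these 42, 5 opened by more than 2-fold (11.9%, beside 13.7% of 85394 peaks) and 7 closed (16.7%, beside 20.5%). The shares near the genes were thus close to those of the whole table, and there is no test with 1 library a side.

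The most one-sided gene was Otx2. All 8 of its peaks with enough reads had fewer scaled reads in mCdx2-OE, 3 of them by more than 2-fold, and their sum went from 1188 to 513. The peak at 19.1 kb downstream of the start (chr14:48653521-48655970, between genes) had 344 reads in WT and 132 in mCdx2-OE, a log2 ratio of −1.81, and the peak at the start had 94 and 64 reads, a ratio of −0.98. Lin28b went the other way at its start, where a peak (chr10:45485602-45487086, over an exon) had 106 and 348 reads, a log2 ratio of 1.27. A peak in its intron 18.3 kb from the start had 6 and 48 reads (2.41). That intron peak overlapped the Cdx2 ChIP peak whose centre is printed above.

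Sox3 also had an opened peak over its start, with 70 and 340 reads and a log2 ratio of 1.83, while its RNA fell. The 2016 ATAC peaks of the X chromosome had a median ratio of 1.01, against −0.13 over all peaks, so the shift was shared along the X, and its part in the Sox3 value was not tested. At Dusp6 the peak over the start was level (0.02, with 312 and 428 reads), while a peak over an exon 2.4 kb downstream (chr10:99265284-99266052) had 70 and 26 reads, a ratio of −1.82. Around Lin28a the 4 peaks with enough reads lay between 0.09 and 0.63, none opened or closed, beside an RNA that fell 4.93-fold. The peaks over the starts of Etv5 (0.24), Zic2 (0.46) and Pou3f1 (0.67) and of Fgf5 (0.25) passed neither bound.

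**Figure D4:**
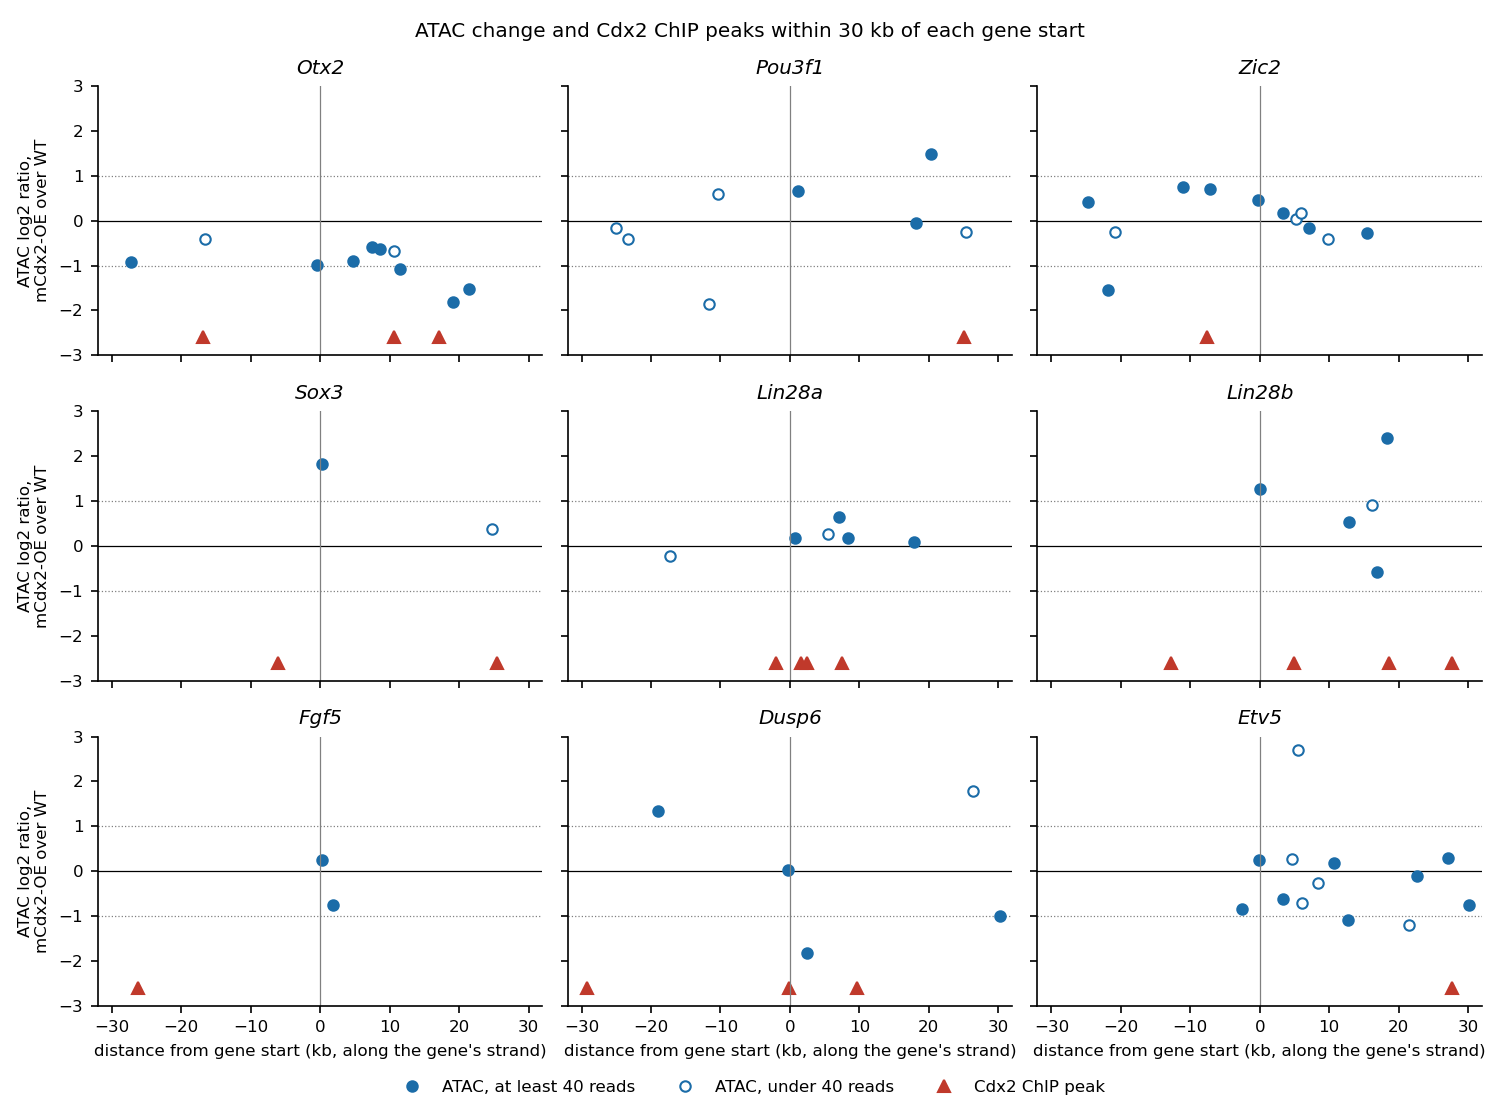
Log2 ratio of ATAC reads in mCdx2-OE over WT (vertical axis, log2 units) for peaks with at least 40 scaled reads (filled) and fewer (open), by distance from the gene start (horizontal axis, kb), with Cdx2 ChIP peaks of mESCs marked by triangles along the same axis. The Otx2 peaks all lie below 0, the Lin28b start peak lies at 1.27, and the Zic2 ChIP peak lies 7.6 kb upstream of the gene.

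In mESCs, 20 Cdx2 ChIP peaks lay within 30 kb of the 9 gene starts, with a median of 2 per gene. This is also the median of 15911 protein-coding genes, of which 75.5% had at least 1 such peak. The read counts set the peaks apart more than their number. At Zic2 the peak at 7.6 kb upstream (chr14:122467349-122468235) held 533 reads in mCdx2-OE and 526 in rCdx2-OE, a sum above the 99th percentile of all peaks (642), and it was present in RMES cells with 174 and 124 reads. The ATAC peak over it had a log2 ratio of 0.70. The Lin28b intron peak (chr10:45467262-45468371) held 205 and 184 reads, above the 90th percentile (252) as a sum, and 2 RMES peaks overlapped it.

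Lin28a had 4 peaks, all below the median sum of 88 reads. Those at 2.4 and 1.6 kb within its introns held 42 and 43 and 39 and 39 reads, the one at 7.5 kb held 37 and 32, and the one 2.0 kb upstream held 27 and 39. The peak at 1.6 kb was found again in RMES cells (20 and 21 reads). Dusp6 had 3, of which the one at its start (chr10:99262811-99263152) held 31 and 28 reads and the one 9.6 kb downstream of the start held 86 and 75. Otx2 had 3, the highest in its intron 10.6 kb from the start with 90 and 88 reads. Sox3 had 2, at 25.5 kb downstream and 6.0 kb upstream. Etv5 had a single peak, in its intron 27.7 kb from the start (39 and 34 reads), and none in RMES cells. Pou3f1 had 1, which lay 25.1 kb away in an exon of Utp11, and Fgf5 had 1, at −26.2 kb. In all 20 peaks mCdx2-OE and rCdx2-OE reads were within 2-fold of each other after scaling, a description with 1 library each.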

How the data were processed

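All values used are raw counts that the authors deposited. For RNA-seq the authors aligned strand-specific read pairs to mm10 (RMES cells: mm10 and rn6, each read given to one genome by edit distance) with STAR 2.7.0d and counted them per gene by strand with featureCounts, also listing exon lengths in bases. Lengths in the deposited tables were used only for CPM per kilobase. Replicates 1 and 2 of mESCs were counted in separate runs, the second without incomplete and chimeric pairs, so that number also marks the run. ATAC-seq and ChIP-seq reads were aligned by the authors with Bowtie2 2.3.4.3. They dropped reads of low mapping quality, mitochondrial reads and duplicates, called MACS2 peaks on merged libraries and deposited counts per peak. Peaks called on merged reads do not show whether each library alone would give them. The submitters' processing notes also name cutadapt 2.6 and Picard 2.6.0. ChIP counts on rn6 were not used here.

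Conditions come from the sample labels. An mESC label without a replicate number was called replicate 1. The columns of both ChIP tables carry initials, read as mCdx2-OE and rCdx2-OE. Tests used edgeR 4.0.16 (TMM, filterByExpr, quasi-likelihood) in R 4.3.3 over all genes, with Benjamini-Hochberg adjustment and SE from the fold change and F statistic. Comparisons with WT also required over 2-fold, and all others a threshold of 0.05 alone. The 20 mESC libraries shared 1 model. Mutant effects came from an additive model of 16 libraries, without a term for an offset shared by all mutants. Allele differences came from an interaction term, each library being its own block. DESeq2 1.42.0, other scalings, filters and thresholds, a replicate block and leaving out each library were the alternatives. Peaks within 30 kb of a GENCODE M21 start were taken, ATAC peaks with at least 40 scaled reads and a pseudocount of 1. Scripts were tested on simulated data, and replicates differed by more than sampling noise. The members, lists and tests were chosen with earlier results of these data known. From each list the 3 called genes with the largest change in mCdx2-OE and at least 50 counts were named, and for each member the 2 genes most like it over mean log2(CPM + 1) of the 10 conditions. Xist was chosen after its values were seen.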

Additional observations from a re-analysis of the deposited data

Results flagged for a closer look

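In RMES cells the response to Cdx2-OE differed between the alleles for 4 of the 5 genes tested on both, by the interaction test of edgeR, where 62.1% of all genes were called. As rat minus mouse log2 fold change, Zic2 differed by −1.60 and Etv5 by −1.43, both falling further on the rat allele. Dusp6 differed by 0.75, falling further on the mouse allele, and Lin28a by 0.10. The call of Lin28a was lost with DESeq2 (adjusted p = 0.102), with DESeq2 size factors (adjusted p = 0.0501) and without either library labelled WT.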

How the results depend on the processing

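Over 78 results and 1031 alternatives, counts of called genes and peaks kept within 1.5 times their value in 224 cases and moved in 16. Without the fold threshold, 2 genes were higher and 6 lower in the mutants than in WT, beside 11820 of all 16000 genes called in either direction. Opened ATAC peaks numbered 9 without scaling, 2 within 10 kb and 13 within 100 kb. Closed ones numbered 4 without scaling, 4 with TMM, 1 within 10 kb and 30 within 100 kb. ChIP peaks numbered 9 and 4 (mESC and RMES) within 10 kb, 69 and 50 within 100 kb, and 5 and 2 with at least 100 reads. Single genes kept direction and call in 761 cases, lost the call in 7, gained it in 9 and reversed in 14, all 14 in values that were not called in the results above. The cause was not tested. With every gene kept, Zic2 was at −0.013 in mCdx2-OE and 0.00 on the RMES mouse allele. Over the mutants alone, change 3 gave 0.057 for Pou3f1 and −0.115 for Etv5, and with a replicate block 0.067 and −0.115, when Etv5 was called (adjusted p = 0.0007). Leaving out 1 library gave −0.18 to 0.18 for Zic2 and −0.15 to 0.059 for Pou3f1 in mCdx2-OE, −0.0075 to 0.14 for Etv5 with change 3 and −0.14 to 0.0068 for Lin28b in mutants against rCdx2-OE. On the RMES mouse allele it gave −0.44 to 0.33 for Zic2 and −0.23 to 0.19 for Lin28b, and −0.026 to 0.38 for the allele difference of Lin28b. The allele difference of Lin28a lost its call with DESeq2 size factors (0.09, adjusted p = 0.0501) and DESeq2 (0.09, adjusted p = 0.102). With 1 library left out, counts ranged from 3 to 4 for genes lower in mCdx2-OE, from 4 to 7 for mutants against rCdx2-OE, and from 3 to 4 on the RMES mouse allele and between alleles.

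Replicate numbers did not pair the mESC samples as a whole: deviations of same-numbered libraries correlated from −0.14 to 0.453 over 45 pairs of conditions. Of these pairs, 21 were over 0.1. All 21 pairs of mutants were positive (0.0942 to 0.193), and 20 of them were over 0.1. The other pair over 0.1, at 0.453, was mCdx2-OE with rCdx2-OE. No pair over 0.1 joined a mutant with WT, mCdx2-OE or rCdx2-OE. Within the mutants the number went with a shared shift. Pou5f1, for example, had 641 to 712 CPM in replicate 1 of the mutants and 902 to 942 in replicate 2. The main fits held no term for the replicate number. With the replicate block, counts of called genes were as without it, except 6 rather than 5 for mutants against rCdx2-OE, where Pou3f1 was then called (−0.53). Over the mutants alone with the block, a fit chosen after seeing the data, 2 genes were called for change 2 where 0 were without it. Counts were lowest for Fgf5, Sox3, Pou3f1 and, in RMES cells, Otx2.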
